A study of Mus musculus with 12 samples.

Results

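The genes described here are 41 markers of Kupffer cells and other leukocytes, read from the gene table of 12 whole mouse livers. A gene belonged to the set when its symbol in the table was on a list of 41 symbols, which was drawn up with earlier results of these data known. All 41 were among the 24532 genes of the table, and all 41 passed the filter on low counts that left 14038 genes for testing. By the cells that they mark they fall into 9 role groups, which are Kupffer cell identity, macrophage and complement C1q, MHC class II, monocyte and dendritic cell, neutrophil, pan-leukocyte and myeloid signaling, lipid-associated macrophage, T and NK cell, and B cell.

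The livers came from male C57BL/6 mice of 2 genotypes on 2 liquid diets, with 3 livers in each of the 4 groups. *Ahr* HKO mice carried *Ahr* fl/fl with *Alb-Cre*, a transgene in which the albumin promoter drives Cre recombinase in hepatocytes, so that leukocytes were not the target of the deletion. WT mice were *Ahr* fl/fl littermates without *Cre*, and the loxP-flanked allele was therefore shared by all 4 groups. Feeding started at 10 to 12 weeks of age, and the mice took either the Lieber-DeCarli diet with 5% ethanol by volume or its isocaloric control for 5 weeks. The comparisons ask how ethanol feeding and the hepatocyte deletion of *Ahr*, each alone and together, altered RNA of immune cells in the liver.

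Kupffer cells are the resident macrophages of the liver. They sit in the sinusoids, take up bacteria, aged red cells and cell debris through scavenger and complement receptors, and depend on CSF1 receptor signaling for their survival. Monocytes from the blood can enter the injured liver and become macrophages there, while neutrophils are recruited by chemokines in alcohol-related liver injury. AhR is a ligand-activated transcription factor, and in hepatocytes it drives genes of xenobiotic metabolism such as *Cyp1a2*.

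Expression is given as CPM, the reads of a gene scaled to a library of fixed size with TMM factors, and the values of a group are in the order of livers 1, 2 and 3. Livers on the control diet and on ethanol are called control and ethanol livers. These numbers do not pair livers between groups. The libraries held 46306518 to 74336255 reads counted on genes, so that 3 counts, taken as the floor of detection, correspond to 0.0425 to 0.0676 CPM. This floor covers counting error only. The labels name no sequencing batch or date, and no pair of libraries had identical counts. Hepatocyte markers dominated every library, with a summed level of 82070 to 127400 CPM over the 5 that were found of 6. In whole liver, fewer cells of a type and less RNA per cell cannot be told apart, and this holds for every value below.

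The targeted gene does not check the genotype labels here. *Ahr* was counted as 1 gene while the floxed deletion removes exon 2 only, so its count does not show the deletion. Its level was 20.1, 16.6 and 18.3 CPM in WT control livers, 65.5, 41.3 and 63.3 in *Ahr* HKO control livers, 30.5, 20.8 and 23.4 in WT ethanol livers and 41.8, 32.1 and 24.7 in *Ahr* HKO ethanol livers. The libraries labelled *Ahr* HKO thus had more *Ahr* reads than WT on the control diet and overlapped WT on ethanol. The level of *Cyp1a2*, an AhR target, was 617, 398 and 456 CPM in WT against 90.7, 112 and 258 CPM in *Ahr* HKO on the control diet, and 1210, 1060 and 992 CPM against 629, 684 and 658 CPM on ethanol. A second AhR target, *Cyp1a1*, went the other way on the control diet, with 0.349, 0.214 and 0.204 CPM in WT and 0.898, 0.444 and 0.827 CPM in *Ahr* HKO, and overlapped on ethanol, with 1.36, 1.02 and 1.66 CPM in WT and 1.03, 1.23 and 1.67 CPM in *Ahr* HKO. WT and *Ahr* HKO below always mean the libraries so labelled.

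Some livers stood apart within their group across many of the markers. Among WT livers on the ethanol diet, liver 2 was the highest of its group in 34 of the 41 markers and liver 3 the lowest in 33. Among *Ahr* HKO livers on the control diet, liver 1 was the highest in 38 and liver 3 the lowest in 30. The median coefficient of variation of the markers was 43.1% and 44.1% in these 2 groups, against 18.1% both in WT on the control diet and in *Ahr* HKO on the ethanol diet. Counts that change by over 1.5 times without one of these livers are given without it as well.

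The markers with the highest levels were those of macrophages and antigen-presenting cells. On the FPKM scale, which corrects for gene length and so allows levels to be compared between genes, the highest means over 12 livers were 76.4 for *Cd74*, 73.0 for *Cd5l*, 66.6 for *C1qb*, 63.9 for *Lyz2*, 54.6 for *C1qc*, 45.5 for *Clec4f* and 45.1 for *C1qa*. Of these, *Clec4f* is a C-type lectin that in the mouse marks Kupffer cells. The neutrophil markers *S100a9* and *S100a8* stood at 5.57 and 3.39 FPKM, the T cell chemokine gene *Ccl5* at 2.36, and the B cell receptor genes *Cd79b* and *Cd79a* at 0.544 and 0.467. *Gpnmb* had the lowest mean, 0.122 FPKM. The spread over livers was wide, for instance 35.2 to 178 FPKM over the 12 livers for *Cd74*, and the neighbors among these highest markers differ by less than it.

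*Ahr* HKO mice on the ethanol diet had the least RNA of most of these markers. Their group mean was the lowest of the 4 for 36 of the 41 markers, and the highest for 0, where it was the lowest for 3442 and the highest for 2923 of all 14038 tested genes. The highest mean was that of *Ahr* HKO on the control diet for 26 markers, of WT on the ethanol diet for 12 and of WT on the control diet for 3. Over all tested genes *Ahr* HKO on the control diet was also the group most often highest, for 4682. In 17 of the 41 markers, which is 41.5%, each of the 3 *Ahr* HKO livers on ethanol was below each of the other 9 livers, a pattern that 3.48% of all tested genes had. Those 17 were *Vsig4*, *Timd4*, *Marco*, *Cd5l*, *Adgre1*, *Cd68*, *Csf1r*, *C1qa*, *C1qb*, *C1qc*, *Lyz2*, *Cd14*, *Itgam*, *Ptprc*, *Laptm5*, *Tyrobp* and *Spi1*. No lymphocyte marker and no neutrophil marker was among them.

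**Figure D1:**
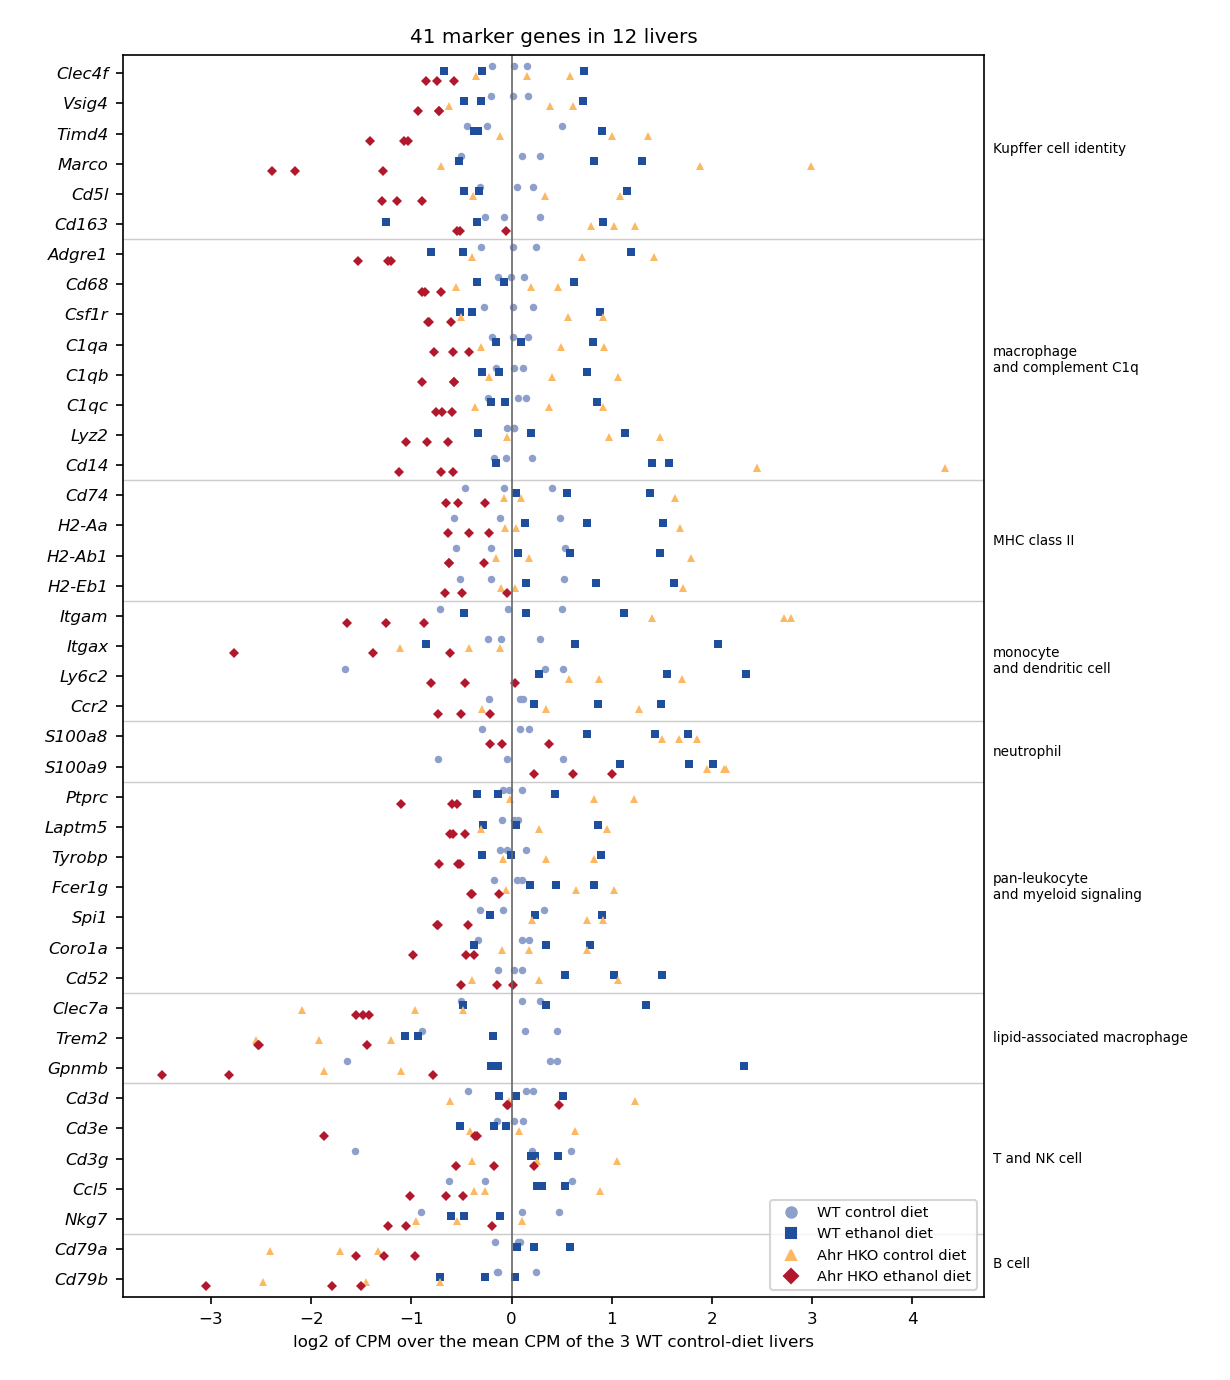
Each of the 41 markers (rows, with role groups named at the right) in each of the 12 livers, as the log2 of the CPM over the mean CPM of the 3 WT livers on the control diet (x axis), with 1 symbol for each liver and a color and shape for each group. The livers of *Ahr* HKO on ethanol lie at the left end in most Kupffer cell and macrophage rows, and 1 *Ahr* HKO control-diet liver with 0 counts of *Gpnmb* is not drawn.

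Ethanol feeding lowered many markers in *Ahr* HKO livers. Against *Ahr* HKO on the control diet, 0 of 41 rose and 23 fell at an adjusted *P* value under 0.05 in the quasi-likelihood test of edgeR, where 15% of all tested genes rose and 16.1% fell. The median log2 fold change (FC) over the 41 was -1.06, beside -0.02 over all tested genes, and 39 of the 41 values were below 0. Without *Ahr* HKO control liver 1 the median was -0.63. The groups did not overlap, with *Ahr* HKO on ethanol lower, in 28 of 41 markers against 25.3% of all tested genes. Of the 23 calls, 11 were made in all 6 fits without 1 liver (*Timd4*, *Cd5l*, *Cd163*, *Adgre1*, *Lyz2*, *Cd14*, *Itgam*, *S100a8*, *S100a9*, *Ptprc* and *Spi1*). The number of calls was 14 without *Ahr* HKO control liver 1, 14 without control liver 2, and 11, 12 and 13 without *Ahr* HKO ethanol livers 1, 2 and 3. Those fits called 2588 to 3210 of all tested genes.

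In WT livers the same diet raised 2 of the 41 markers, *S100a9* and *Cd52*, and lowered 0, beside 4.24% of all tested genes that rose and 4.48% that fell. The median log2 FC was 0.32 over the 41 and 0.01 over all tested genes, with 37 of the 41 values above 0 and 8 with an unadjusted *P* value under 0.05. Without WT ethanol liver 2 the median was -0.04. The count was 0 without any one of WT control livers 1, 2 and 3 and WT ethanol livers 1 and 2, and it was 4 without WT ethanol liver 3. Those fits without 1 liver called 360 to 1011 of all 14038 tested genes. The Wald test of DESeq2 called 5 markers, beside 2354 of all tested genes.

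On the control diet, *Ahr* HKO livers differed from WT livers in 7 markers. *Cd163*, *Cd14*, *Itgam*, *S100a8* and *S100a9* were higher (5 of 41, where 15.3% of all tested genes were higher) and *Trem2* and *Cd79a* were lower (2 of 41, where 14.4% were lower). The median log2 FC was 0.46 over the 41, with 7 values below 0, and -0.00 over all tested genes. Without *Ahr* HKO control liver 1 the median was 0.03, with 17 values below 0. The 5 higher markers were called in all 6 fits without 1 liver. Without *Ahr* HKO control liver 3 the number called was 20, beside 3682 of all 14038 tested genes. DESeq2 called 12, beside 4848 of all tested genes.

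On the ethanol diet, each of the 41 markers had a log2 FC below 0 in *Ahr* HKO against WT, and 0 passed an adjusted *P* value under 0.05 in edgeR, where 0.684% of all tested genes were higher and 0.378% lower. The median was -1.24 over the 41 (-0.76 without WT ethanol liver 2) and -0.01 over all tested genes, 35 of 41 had an unadjusted *P* value under 0.05, and the smallest adjusted *P* value was 0.0620, for *Marco*. In 33 of 41 markers each *Ahr* HKO liver was below each WT liver, while 14.2% of all tested genes did so. The exceptions were *Clec4f*, *Cd163*, *Itgax*, *Coro1a*, *Cd3d*, *Cd3e*, *Cd3g* and *Nkg7*. DESeq2 called 30 of 41 here, all lower, limma on FPKM called 0, and edgeR called 5 without WT ethanol liver 3. Of all 14038 tested genes, DESeq2 called 1484, limma 92 with a pseudocount of 1 and 135 with 0.1, and edgeR 193 without that liver.

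The interaction of genotype and diet, which is the log2 FC of ethanol in *Ahr* HKO minus that in WT, was tested on all 12 livers. It was below 0 at an adjusted *P* value under 0.05 for 23 of 41 markers and above 0 for 0, where 11.1% of all tested genes were below and 11.2% above. The median was -1.41 over the 41 and -0.03 over all tested genes. In *Marco*, *Lyz2*, *Cd14*, *Itgam*, *S100a8*, *S100a9*, *Fcer1g* and *Spi1*, 8 in all, it was called in all 12 fits without 1 liver. The number called was 8 to 12 without any one of *Ahr* HKO control liver 1 (8), WT control livers 1 (10) and 2 (9), WT ethanol liver 2 (9) and *Ahr* HKO ethanol livers 1 (10), 2 (11) and 3 (12). Those fits called 2267 to 2666 of all tested genes, beside 3137 with all 12 livers. The 5 tests use the same 4 groups of livers and are not independent of each other.

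**Figure D2:**
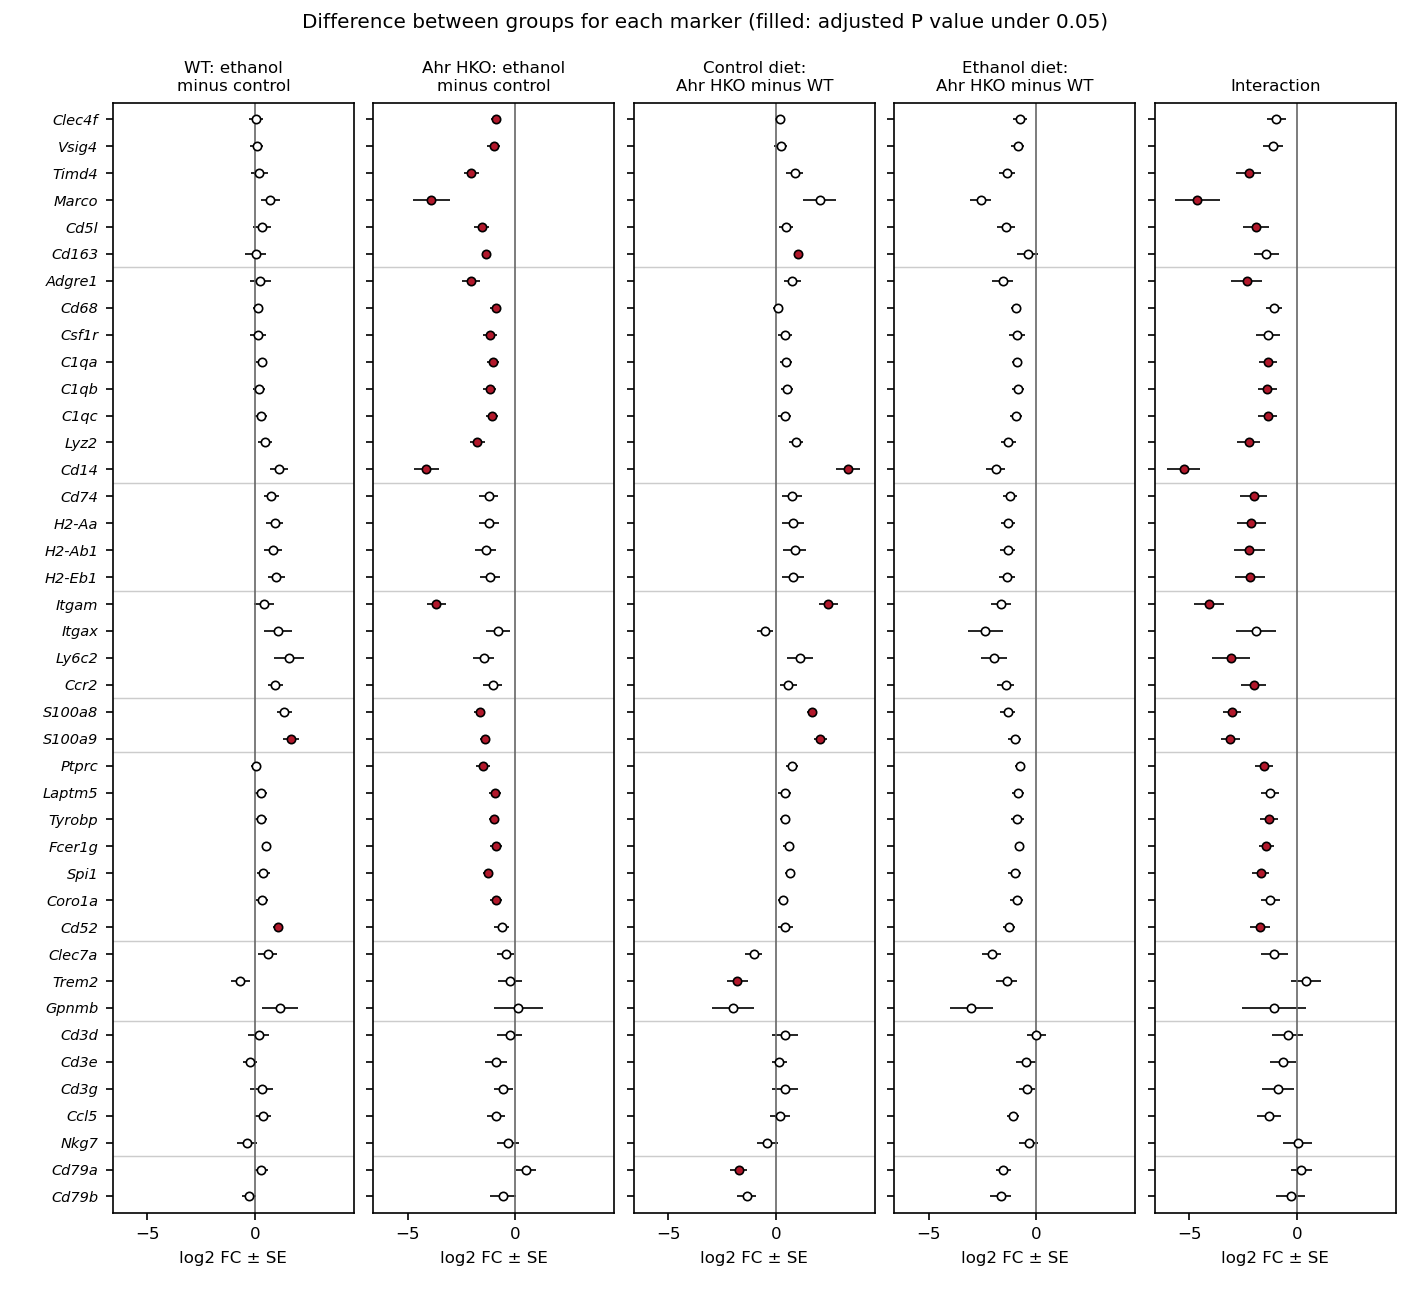
The log2 FC of each of the 41 markers (points) with its standard error (bars) in the 4 comparisons of a pair of groups and in the interaction (panels from left to right), with points filled in red where the adjusted *P* value of edgeR was under 0.05. Red points number 2, 23, 7, 0 and 23 from the left panel to the right, and none of the 23 in the second and last panels lies above 0.

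Kupffer cell identity genes fell together in *Ahr* HKO livers on ethanol, 6 of 6, with a median log2 FC of -1.47. Their summed level was 159.7 to 205 CPM there, against 275 to 744 in *Ahr* HKO on the control diet, 288 to 380.0 in WT on the control diet and 259 to 665 in WT on ethanol. In WT, edgeR called 0 of 6 with ethanol, also at an unadjusted *P* value under 0.05.

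*Clec4f* stood at 131, 103 and 119.5 CPM in WT control livers, 73.8, 194 and 95.7 in WT ethanol livers, 176, 131 and 91.8 in *Ahr* HKO control livers and 65.0, 70.1 and 78.9 in *Ahr* HKO ethanol livers. The *Ahr* HKO ethanol livers held the lowest values together with WT ethanol liver 1, and the fall in *Ahr* HKO was 1.87-fold (log2 FC -0.90 ± 0.23 SE, adjusted *P* = 0.0246). *Vsig4*, a complement receptor for clearance of C3b-coated particles, followed it closely, at 28.8, 24.8 and 31.8 CPM in WT control livers, 20.6, 46.7 and 23.1 in WT ethanol livers, 43.4, 37.3 and 18.4 in *Ahr* HKO control livers and 14.9, 17.3 and 17.2 in *Ahr* HKO ethanol livers. Its 3 *Ahr* HKO ethanol livers were below all others, a fall of 2.01-fold from *Ahr* HKO on the control diet (log2 FC -1.01 ± 0.29, adjusted *P* = 0.0365). The calls of both falls were lost in 5 of the 6 fits without 1 liver, with log2 FCs of -1.11 to -0.63 for *Clec4f* and -1.29 to -0.74 for *Vsig4*. The interaction was not called for either gene, with adjusted *P* values of 0.152 and 0.115.

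*Timd4* encodes a phosphatidylserine receptor found on long-lived resident macrophages. Its levels were 7.84, 6.82 and 13.2 CPM in WT control livers, 7.36, 17.4 and 7.13 in WT ethanol livers, 23.8, 18.5 and 8.57 in *Ahr* HKO control livers and 3.47, 4.40 and 4.53 in *Ahr* HKO ethanol livers. It fell 4.12-fold with ethanol in *Ahr* HKO (log2 FC -2.04 ± 0.36, adjusted *P* = 0.00738), with an interaction of -2.24 ± 0.60 (adjusted *P* = 0.0215). *Cd5l*, which encodes a protein that macrophages secrete into plasma, had 152, 118 and 169.9 CPM in WT control livers, 117, 325 and 105 in WT ethanol livers, 310.4, 184 and 112 in *Ahr* HKO control livers and 59.8, 66.5 and 78.8 in *Ahr* HKO ethanol livers. For *Cd5l* the fall in *Ahr* HKO was 2.96-fold (adjusted *P* = 0.0152) and the interaction -1.88 ± 0.61 (adjusted *P* = 0.0461), which was no longer called in 9 of 12 fits without 1 liver and was -1.15 without WT ethanol liver 2.

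*Marco*, a scavenger receptor for bacteria and particles, spread the most of the Kupffer cell genes relative to its level. It was at 12.9, 19.7 and 22.2 CPM in WT control livers, 32.4, 45.0 and 12.7 in WT ethanol livers, 145, 67.2 and 11.2 in *Ahr* HKO control livers and 3.49, 4.09 and 7.49 in *Ahr* HKO ethanol livers. Livers 1 and 2 of *Ahr* HKO on the control diet were above all others, while liver 3 was below the 3 WT control livers. *Marco* fell 14.9-fold with ethanol in *Ahr* HKO (log2 FC -3.90 ± 0.86, adjusted *P* = 0.0151), a call that was lost in 2 of the 6 fits without 1 liver, and its interaction was -4.62 ± 1.03 (adjusted *P* = 0.0102). Without *Ahr* HKO control liver 1, the log2 FC of the fall was -2.96 and the interaction -3.69. Its promoter is printed with those of the C1q genes.

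*Cd163*, the receptor that clears haptoglobin-bound hemoglobin, was the 1 gene of the 6 that was called between the genotypes on the control diet. Its CPM was 18.2, 16.0 and 23.4 in WT and 45.1, 39.0 and 33.3 in *Ahr* HKO on the control diet, so that all *Ahr* HKO livers were above all WT livers, 2.04-fold on average (log2 FC 1.03 ± 0.17, adjusted *P* = 0.00556). On ethanol it was 8.02, 36.2 and 15.1 CPM in WT and 13.2, 13.4 and 18.4 CPM in *Ahr* HKO, and these groups overlapped. The fall with ethanol in *Ahr* HKO was 2.61-fold (adjusted *P* = 0.00285).

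Of the general macrophage and complement C1q genes, 8 of 8 fell with ethanol in *Ahr* HKO, with a median log2 FC of -1.19. In WT, edgeR called 0 of 8 with ethanol, and 1 of 8 had an unadjusted *P* value under 0.05. C1q is the recognition subunit of the classical complement pathway, and tissue macrophages are its main source. Its 3 chains are encoded by *C1qa*, *C1qc* and *C1qb*, neighbors on chromosome 4 (in GRCm38, *C1qb* spans 136880126 to 136886200, *C1qc* 136889801 to 136892936 and *C1qa* 136895916 to 136898844). PU.1, encoded by *Spi1*, is a transcription factor that macrophages need. The promoters of *C1qb*, *C1qc* and *Marco* are shown as examples that hold a core of PU.1 binding. Each is the RefSeq sequence (GRCm38.p6) from 250 bases before the annotated start to 50 after it, 5′ to 3′ on the strand of the gene, and the capitals mark GAGGAA, a core of PU.1 binding, on either strand (TTCCTC is the same core read on the other strand).
*C1qb* (chr4:136886151-136886450, minus strand): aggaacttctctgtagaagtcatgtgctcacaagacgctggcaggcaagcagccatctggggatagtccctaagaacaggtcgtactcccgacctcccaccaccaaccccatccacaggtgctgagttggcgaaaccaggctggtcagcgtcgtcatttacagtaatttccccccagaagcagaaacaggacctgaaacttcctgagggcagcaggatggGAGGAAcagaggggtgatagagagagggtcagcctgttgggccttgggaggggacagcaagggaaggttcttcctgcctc
*C1qc* (chr4:136892865-136893164, minus strand): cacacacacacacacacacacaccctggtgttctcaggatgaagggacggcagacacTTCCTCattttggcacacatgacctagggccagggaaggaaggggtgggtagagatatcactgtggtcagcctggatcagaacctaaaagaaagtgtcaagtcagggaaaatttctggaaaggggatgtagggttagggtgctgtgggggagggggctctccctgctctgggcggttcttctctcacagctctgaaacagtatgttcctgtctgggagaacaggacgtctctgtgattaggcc
*Marco* (chr1:120504975-120505274, minus strand): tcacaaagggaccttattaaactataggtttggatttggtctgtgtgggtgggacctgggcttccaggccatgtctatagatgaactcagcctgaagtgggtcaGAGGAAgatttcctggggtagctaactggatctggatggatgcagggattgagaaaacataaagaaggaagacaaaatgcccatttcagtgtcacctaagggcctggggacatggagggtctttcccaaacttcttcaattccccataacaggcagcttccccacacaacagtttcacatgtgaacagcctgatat

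The core stands at base -30 of *C1qb*, -193 of *C1qc* and -146 of *Marco*, counted from the annotated start. A promoter window was given for 30 of the 41 markers, and GAGGAA was in 16 of those 30 (53.3%), beside 31.3% of all 27025 genes with a window. The longer GAGGAAGT, which contains GAGGAA, was in 3 of the 30 (10%: *C1qc*, *Ly6c2* and *S100a8*) and in 3.69% of all genes. Of the 16 with GAGGAA, *Cd3d*, *Cd3e*, *Cd79a*, *Clec7a*, *Ly6c2* and *Trem2* were not called with ethanol in *Ahr* HKO, while the others were. Such a match is a description of the letters and not a binding site, and no link to the level of *Spi1* was tested.

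The 3 C1q genes had closely like values. *C1qa* had 46.6, 40.3 and 51.9 CPM in WT control livers, 49.5, 81.4 and 41.6 in WT ethanol livers, 88.0, 65.0 and 37.6 in *Ahr* HKO control livers and 27.0, 30.9 and 34.5 in *Ahr* HKO ethanol livers. *C1qb* had 70.0, 61.7 and 74.6 CPM in WT control livers, 62.9, 116 and 56.3 in WT ethanol livers, 144, 90.9 and 59.0 in *Ahr* HKO control livers and 36.9, 46.1 and 46.1 in *Ahr* HKO ethanol livers. *C1qc* was at 58.7, 48.0 and 62.1 CPM in WT control livers, 53.6, 102 and 48.7 in WT ethanol livers, 106, 73.0 and 43.8 in *Ahr* HKO control livers and 33.4, 34.9 and 37.2 in *Ahr* HKO ethanol livers. In all 3 genes the *Ahr* HKO ethanol livers were the lowest 3 of the 12. The falls in *Ahr* HKO were 2.06-fold, 2.27-fold and 2.11-fold (adjusted *P* = 0.0314, 0.0248 and 0.0288), and the interactions -1.36, -1.37 and -1.35 had adjusted *P* values of 0.0372, 0.0458 and 0.0481. The calls of the falls were lost in 5, 4 and 5 of 6 fits without 1 liver, and that of each interaction in 9 of 12.

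*Adgre1*, the gene of F4/80, was at 23.6, 16.2 and 20.3 CPM in WT control livers, 14.3, 45.7 and 11.5 in WT ethanol livers, 53.9, 32.5 and 15.2 in *Ahr* HKO control livers and 8.52, 6.93 and 8.70 in *Ahr* HKO ethanol livers, a fall of 4.21-fold in *Ahr* HKO (adjusted *P* = 0.0111). *Cd68*, an endolysosomal glycoprotein, had 15.8, 13.3 and 14.5 CPM in WT control livers, 13.8, 22.4 and 11.4 in WT ethanol livers, 20, 16.6 and 9.86 in *Ahr* HKO control livers and 7.97, 7.81 and 8.91 in *Ahr* HKO ethanol livers, and fell 1.88-fold (adjusted *P* = 0.0298). *Csf1r*, the receptor of CSF1 and IL34, had 67.5, 55.2 and 77.4 CPM in WT control livers, 46.8, 123 and 50.8 in WT ethanol livers, 126, 98.5 and 47.1 in *Ahr* HKO control livers and 37.5, 37.5 and 43.7 in *Ahr* HKO ethanol livers, and fell 2.28-fold (adjusted *P* = 0.0305). The *Ahr* HKO ethanol livers again held the 3 lowest values of each gene. The interaction was called for *Adgre1* (-2.33 ± 0.72, adjusted *P* = 0.0398) but not for *Cd68* or *Csf1r* (adjusted *P* = 0.0672 and 0.10). Without 1 liver, the falls of *Cd68* and *Csf1r* were called in 1 of 6 fits and the interaction of *Adgre1*, which was -1.42 without WT ethanol liver 2, in 3 of 12.

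*Lyz2*, lysozyme of myeloid cells, was even among WT control livers, at 57.1, 54.7 and 57.2 CPM, and ran from 54.6 to 157 CPM in *Ahr* HKO on the control diet (157, 111 and 54.6). On ethanol it was 64.3, 124 and 44.7 CPM in WT and 27.1, 36.2 and 31.3 CPM in *Ahr* HKO. It fell 3.40-fold in *Ahr* HKO (log2 FC -1.77 ± 0.35, adjusted *P* = 0.0113), and its interaction was -2.23 ± 0.54 (adjusted *P* = 0.0144).

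*Cd14*, the co-receptor that hands lipopolysaccharide to TLR4, had the largest log2 FC of the 41 between the genotypes on the control diet and between the diets in *Ahr* HKO. It was at 2.23, 2.41 and 2.88 CPM in WT control livers, 7.46, 6.63 and 2.25 in WT ethanol livers, 50.3, 13.7 and 13.7 in *Ahr* HKO control livers and 1.67, 1.54 and 1.15 in *Ahr* HKO ethanol livers. *Ahr* HKO livers on the control diet were thus above, and those on ethanol below, every other liver. On the control diet the level in *Ahr* HKO was 10.3-fold that of WT (log2 FC 3.37 ± 0.56, adjusted *P* = 0.00539), and without liver 1 of that group, the highest, the log2 FC was 2.46. With ethanol *Cd14* fell 17.7-fold in *Ahr* HKO (log2 FC -4.14 ± 0.59, adjusted *P* = 0.00405), and without the same liver the log2 FC was -3.21. Its interaction, -5.26 ± 0.78 (adjusted *P* = 0.00150), was the most negative of the 41, and was -4.35 without that liver. Hepatocytes can also express *Cd14*, and whole liver does not tell the source.

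**Figure D3:**
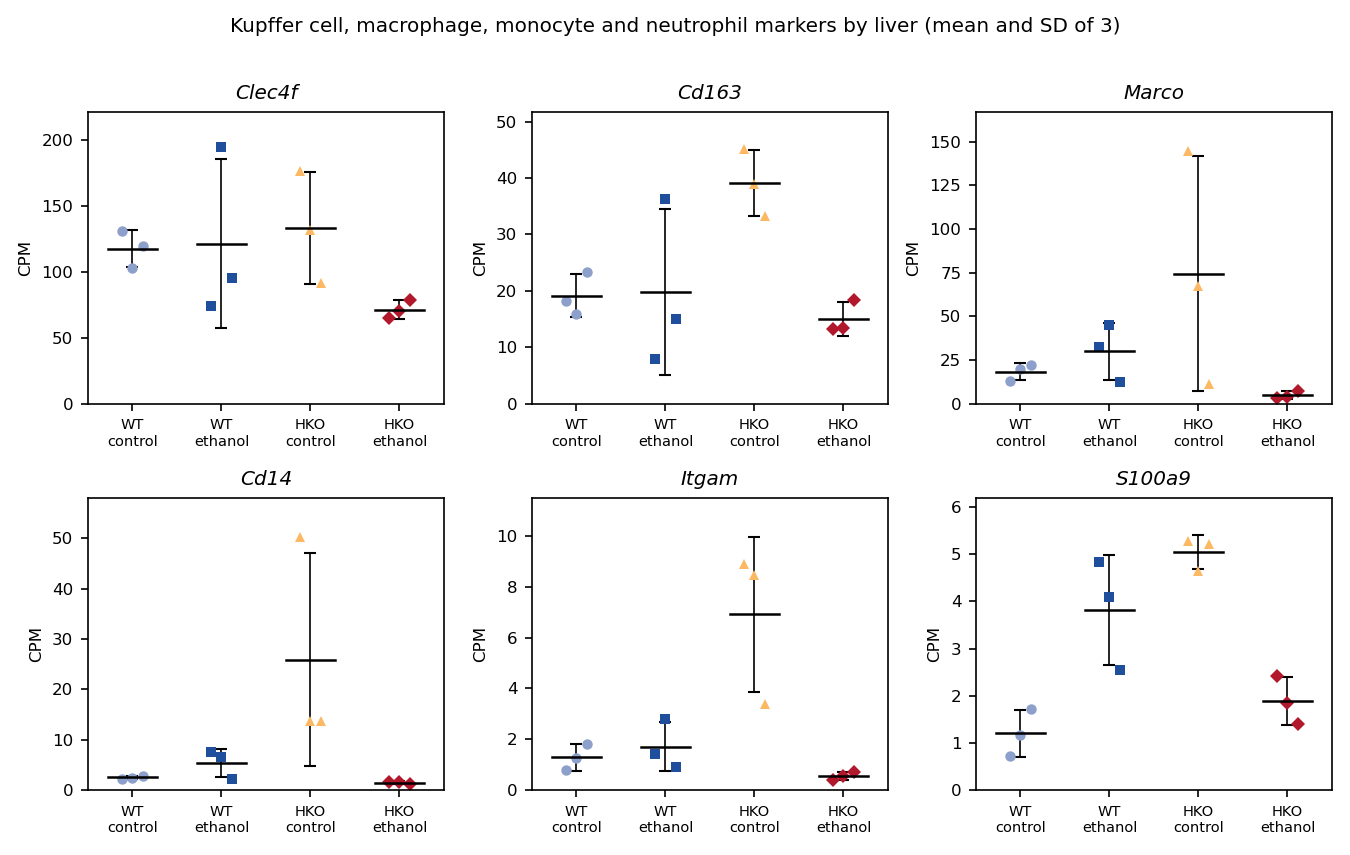
CPM (y axis, linear from 0) of *Clec4f*, *Cd163*, *Marco*, *Cd14*, *Itgam* and *S100a9* in each of the 12 livers (symbols, livers 1 to 3 from left to right in each group), with the group mean (line) and SD of 3 livers (bars). *Marco*, *Cd14* and *Itgam* are highest in *Ahr* HKO on the control diet and lowest in *Ahr* HKO on ethanol, while *S100a9* is lowest in WT on the control diet.

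MHC class II genes, through which macrophages, dendritic cells and B cells present peptides to helper T cells, differed in the interaction in 4 of 4 but edgeR called 0 of 4 in each comparison of a pair of groups. At an unadjusted *P* value under 0.05 the class II counts were 2 of 4 for ethanol in WT, 4 of 4 for ethanol in *Ahr* HKO, 0 of 4 between genotypes for control livers and 4 of 4 for ethanol livers. *H2-Aa* and *H2-Eb1* encode class II chains, and their promoters are shown because class II genes share a conserved promoter whose Y box is an inverted CCAAT element. The windows are from RefSeq (GRCm38.p6), 5′ to 3′ on the strand of the gene, 250 bases before to 50 after the start, with the letters CTGATTGG in capitals.
*H2-Aa* (chr17:34287774-34288073, minus strand): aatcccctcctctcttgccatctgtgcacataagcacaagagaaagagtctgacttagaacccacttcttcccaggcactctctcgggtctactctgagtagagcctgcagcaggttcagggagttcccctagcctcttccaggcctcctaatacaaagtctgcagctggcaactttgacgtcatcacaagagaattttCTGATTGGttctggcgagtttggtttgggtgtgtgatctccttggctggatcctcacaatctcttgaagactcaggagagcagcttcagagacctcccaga
*H2-Eb1* (chr17:34305617-34305916, plus strand): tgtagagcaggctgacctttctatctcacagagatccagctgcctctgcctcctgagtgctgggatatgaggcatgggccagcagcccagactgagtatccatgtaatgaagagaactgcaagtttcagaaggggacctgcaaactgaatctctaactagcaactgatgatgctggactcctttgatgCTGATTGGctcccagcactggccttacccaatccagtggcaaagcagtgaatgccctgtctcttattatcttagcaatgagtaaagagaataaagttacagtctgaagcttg

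The capitals begin at base -51 of *H2-Aa* and -62 of *H2-Eb1*. Searched on both strands, these letters were in 2 of the 30 markers with a window and in 4.7% of all genes, and they share no bases with GAGGAA. The genes *H2-Ab1* (34263227 to 34269418), *H2-Aa* (34282744 to 34287823) and *H2-Eb1* (34305867 to 34316674) lie together on chromosome 17.

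*Cd74*, the invariant chain that guards the class II groove, had 73.4, 56.3 and 102 CPM in WT control livers, 113, 202 and 79.7 in WT ethanol livers, 239, 82.6 and 73.3 in *Ahr* HKO control livers and 49.2, 64.4 and 53.4 in *Ahr* HKO ethanol livers. *H2-Aa* was at 22.7, 16.6 and 34.5 CPM in WT control livers, 41.5, 70.3 and 26.9 in WT ethanol livers, 79.1, 23.5 and 25.4 in *Ahr* HKO control livers and 18.3, 21.0 and 15.9 in *Ahr* HKO ethanol livers. A single liver, *Ahr* HKO control liver 1, carried most of the height of its group in all 4 genes, and the other 2 livers of that group lay within the range of WT on the control diet. *H2-Ab1* had 25.7, 20.1 and 42.8 CPM in WT control livers, 44.1, 82.7 and 30.9 in WT ethanol livers, 102, 26.6 and 33.4 in *Ahr* HKO control livers and 19.1, 24.5 and 19.2 in *Ahr* HKO ethanol livers. *H2-Eb1* had 17.3, 14.0 and 28.6 CPM in WT control livers, 35.8, 61.5 and 22.1 in WT ethanol livers, 65.4, 18.6 and 20.4 in *Ahr* HKO control livers and 14.2, 19.3 and 12.6 in *Ahr* HKO ethanol livers.

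With ethanol the class II log2 FCs were 0.77 to 0.99 in WT, with adjusted *P* values of 0.169 to 0.241, and -1.37 to -1.18 in *Ahr* HKO, with adjusted *P* values of 0.0696 to 0.104. The interactions were -2.01 for *Cd74*, -2.12 for *H2-Aa*, -2.20 for *H2-Ab1* and -2.17 for *H2-Eb1*, with adjusted *P* values of 0.0423 to 0.0470. Each of them was lost in 8 of 12 fits without 1 liver, and without *Ahr* HKO control liver 1 they were -1.26 for *Cd74*, -1.33 for *H2-Aa*, -1.36 for *H2-Ab1* and -1.35 for *H2-Eb1*.

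Among monocyte and dendritic cell markers, 1 of 4 fell with ethanol in *Ahr* HKO and 3 of 4 differed in the interaction. *Itgam* encodes CD11b, an integrin subunit of monocytes, neutrophils and recruited macrophages. It was at 0.786, 1.25 and 1.82 CPM in WT control livers, 1.42, 2.80 and 0.923 in WT ethanol livers, 8.88, 8.48 and 3.39 in *Ahr* HKO control livers and 0.411, 0.540 and 0.699 in *Ahr* HKO ethanol livers. As with *Cd14*, the *Ahr* HKO control livers were above, and the *Ahr* HKO ethanol livers below, all others. *Itgam* was 5.37-fold higher in *Ahr* HKO than in WT on the control diet (adjusted *P* = 0.00746), fell 12.7-fold with ethanol in *Ahr* HKO (log2 FC -3.67 ± 0.43, adjusted *P* = 0.00255), and had an interaction of -4.08 ± 0.69 (adjusted *P* = 0.00270).

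*Ly6c2*, a surface protein of classical monocytes, was low throughout, at 0.0873, 0.393 and 0.347 CPM in WT control livers, 0.812, 1.40 and 0.334 in WT ethanol livers, 0.898, 0.409 and 0.504 in *Ahr* HKO control livers and 0.283, 0.201 and 0.158 in *Ahr* HKO ethanol livers. Its sequence is close to that of *Ly6c1*, and how such reads were shared is not given in the sources used here. *Ccr2*, the receptor that draws monocytes toward CCL2, was at 0.808, 1.02 and 1.00 CPM in WT control livers, 1.72, 2.65 and 1.1 in WT ethanol livers, 2.27, 1.19 and 0.766 in *Ahr* HKO control livers and 0.567, 0.664 and 0.812 in *Ahr* HKO ethanol livers. All 3 WT livers on ethanol were above all 3 on the control diet in *Ccr2*, at an adjusted *P* value of 0.152. The interactions were -3.07 ± 0.89 for *Ly6c2* (adjusted *P* = 0.0301) and -2.01 ± 0.59 for *Ccr2* (adjusted *P* = 0.0319), lost in 5 and 7 of 12 fits without 1 liver. *Itgax*, the gene of CD11c, ranged over 0.135 to 3.85 CPM and passed no test.

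The neutrophil markers *S100a8* and *S100a9* were lowest in WT livers on the control diet and *Ahr* HKO livers on ethanol. They encode calprotectin, which fills the cytosol of neutrophils and is also made by monocytes, and are neighbors on chromosome 3 (90669071 to 90670034 and 90692630 to 90695721). The promoter of *S100a8* is shown in the same way as those above, with TTCCTC, which is GAGGAA read on the other strand, in capitals at bases -170 and -36.
*S100a8* (chr3:90668821-90669120, plus strand): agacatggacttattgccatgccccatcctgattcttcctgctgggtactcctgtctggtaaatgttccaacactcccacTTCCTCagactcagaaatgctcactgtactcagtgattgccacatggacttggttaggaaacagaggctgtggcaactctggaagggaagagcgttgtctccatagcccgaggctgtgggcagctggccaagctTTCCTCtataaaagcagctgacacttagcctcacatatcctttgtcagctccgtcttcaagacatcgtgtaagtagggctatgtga

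*S100a8* had 0.568, 0.785 and 0.736 CPM in WT control livers, 2.36, 1.88 and 1.18 in WT ethanol livers, 2.52, 1.98 and 2.22 in *Ahr* HKO control livers and 0.652, 0.602 and 0.902 in *Ahr* HKO ethanol livers. *S100a9* had 0.720, 1.16 and 1.72 CPM in WT control livers, 4.83, 4.09 and 2.55 in WT ethanol livers, 5.28, 4.64 and 5.22 in *Ahr* HKO control livers and 2.41, 1.84 and 1.40 in *Ahr* HKO ethanol livers. In both genes WT on the control diet was below WT on ethanol and below *Ahr* HKO on the control diet without overlap. *Ahr* HKO livers on ethanol lay near the level of WT on the control diet in *S100a8* and 2 of 3 were above it in *S100a9*.

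On the control diet *S100a8* was 3.20-fold and *S100a9* 4.19-fold higher in *Ahr* HKO than in WT (log2 FC 1.68 ± 0.25 and 2.07 ± 0.30, adjusted *P* = 0.00355 and 0.00346). Ethanol raised *S100a9* 3.18-fold in WT (adjusted *P* = 0.0369), a call that was lost in 5 of the 6 fits without 1 liver, while *S100a8* had a log2 FC of 1.37 ± 0.34 and an adjusted *P* value of 0.0510. In *Ahr* HKO the same diet lowered them 3.13-fold and 2.67-fold (adjusted *P* = 0.00521 and 0.00545). Their interactions, -3.01 ± 0.42 and -3.08 ± 0.46 (adjusted *P* = 0.00105 and 0.00148), were called in all 12 fits without 1 liver.

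Further neutrophil genes were read from a second list of 11, of which 6 passed the filter, and 3 of these were higher in *Ahr* HKO than in WT on the control diet. Of the 11, *Ly6g*, *Mpo*, *Camp*, *Ngp* and *Ltf* had at most 6, 8, 10, 22 and 25 counts in any liver, in that order. *Csf3r*, the G-CSF receptor, was at 2.6, 2.25 and 2.72 CPM in WT and 6.55, 5.02 and 3.59 CPM in *Ahr* HKO on the control diet (log2 FC 1.00 ± 0.24, adjusted *P* = 0.0189). *Cxcr2*, the receptor of CXCL1, was at 0.0873, 0.125 and 0.164 CPM in WT and 0.621, 0.512 and 1.25 CPM in *Ahr* HKO on the control diet (log2 FC 2.63 ± 0.54, adjusted *P* = 0.0112). *Mmp8*, a granule collagenase that was also called there, had 0 counts in all 3 WT control livers and 0.131, 0.375 and 0.565 CPM in *Ahr* HKO (8, 22 and 28 counts). With ethanol in *Ahr* HKO, *Csf3r* fell to 1.76, 2.16 and 2.12 CPM (log2 FC -1.33 ± 0.25, adjusted *P* = 0.00878). None of the 6 was called with ethanol in WT, and 4 of 6 had a negative interaction (*Cxcr2*, *Csf3r*, *Mmp8* and *Retnlg*).

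Pan-leukocyte and myeloid signaling genes fell in 6 of 7 cases with ethanol in *Ahr* HKO, with a median log2 FC of -0.95. *Ptprc*, the gene of CD45 that all leukocytes carry, had 9.17, 8.77 and 10 CPM in WT control livers, 8.50, 12.6 and 7.36 in WT ethanol livers, 21.7, 16.5 and 9.2 in *Ahr* HKO control livers and 4.34, 6.39 and 6.18 in *Ahr* HKO ethanol livers. The *Ahr* HKO ethanol livers were the lowest 3 of the 12, and the fall was 2.81-fold (log2 FC -1.49 ± 0.32, adjusted *P* = 0.0134), with an interaction of -1.52 ± 0.41 (adjusted *P* = 0.0225). *Spi1* had 7.14, 6.11 and 9.48 CPM in WT control livers, 8.91, 14.2 and 6.53 in WT ethanol livers, 14.3, 12.7 and 8.75 in *Ahr* HKO control livers and 4.54, 4.55 and 5.61 in *Ahr* HKO ethanol livers, fell 2.44-fold (adjusted *P* = 0.00568), and had an interaction of -1.67 ± 0.39 (adjusted *P* = 0.0130).

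*Tyrobp* and *Fcer1g* encode the adaptors DAP12 and Fc receptor gamma, which pass signals from activating receptors. *Tyrobp* was at 14.2, 14.9 and 17.0 CPM in WT control livers, 15.3, 28.5 and 12.5 in WT ethanol livers, 27.2, 19.5 and 14.5 in *Ahr* HKO control livers and 9.28, 10.8 and 10.6 in *Ahr* HKO ethanol livers. *Fcer1g* was at 7.73, 9.07 and 9.34 CPM in WT control livers, 11.9, 15.4 and 9.92 in WT ethanol livers, 17.7, 13.6 and 8.39 in *Ahr* HKO control livers and 6.65, 7.98 and 6.58 in *Ahr* HKO ethanol livers. They fell 2.00-fold and 1.87-fold in *Ahr* HKO (adjusted *P* = 0.0156 and 0.0372), with interactions of -1.29 and -1.42 (adjusted *P* = 0.0406 and 0.0141). Without 1 liver, the fall of *Tyrobp* was lost in 1 of 6 fits and that of *Fcer1g* in 5, and the interaction of *Tyrobp* in 9 of 12.

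*Laptm5*, a lysosomal membrane protein of blood cells, had 26.4, 24.3 and 27.2 CPM in WT control livers, 26.9, 47.4 and 21.3 in WT ethanol livers, 50.4, 31.4 and 21.0 in *Ahr* HKO control livers and 16.9, 17.4 and 18.8 in *Ahr* HKO ethanol livers (a fall of 1.94-fold, adjusted *P* = 0.0424). *Coro1a*, an actin-binding protein of leukocytes, had 5.15, 6.98 and 7.32 CPM in WT control livers, 8.21, 11.1 and 5.0 in WT ethanol livers, 10.9, 7.32 and 6.07 in *Ahr* HKO control livers and 3.29, 5.0 and 4.74 in *Ahr* HKO ethanol livers (a fall of 1.87-fold, adjusted *P* = 0.0378). Both calls were lost in 5 of the 6 fits without 1 liver. *Cd52*, a small surface glycopeptide of lymphocytes and myeloid cells, was the exception in this group. At 3.93, 3.32 and 3.72 CPM in WT on the control diet and 7.42, 10.3 and 5.30 on ethanol, it rose 2.10-fold in WT (log2 FC 1.07 ± 0.25, adjusted *P* = 0.0406), a call that was lost in 5 of the 6 fits without 1 liver. In *Ahr* HKO it was at 7.64, 4.44 and 2.78 CPM on the control diet and 2.58, 3.70 and 3.31 on ethanol, and did not pass the test (adjusted *P* = 0.213). Its interaction was -1.71 ± 0.47 (adjusted *P* = 0.0253).

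Markers of lipid-associated macrophages, a state of macrophages in fat-laden tissue, were called in 1 of the 5 tests. *Trem2*, a lipid-sensing receptor that signals through DAP12, was at 0.699, 1.43 and 1.78 CPM in WT control livers, 0.680, 1.15 and 0.621 in WT ethanol livers, 0.343, 0.222 and 0.565 in *Ahr* HKO control livers and 0.227, 0.478 and 0.226 in *Ahr* HKO ethanol livers. All *Ahr* HKO livers were below all WT livers within each diet. On the control diet *Trem2* was 3.47-fold lower in *Ahr* HKO (log2 FC -1.80 ± 0.49, adjusted *P* = 0.0316), a call lost in 4 of the 6 fits without 1 liver, and on ethanol the log2 FC was -1.38 ± 0.47 with an adjusted *P* value of 0.168.

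*Clec7a*, the beta-glucan receptor Dectin-1, ranged over 3.59 to 6.21 and 3.63 to 12.9 CPM in WT and over 1.19 to 3.64 and 1.73 to 1.89 CPM in *Ahr* HKO, for the control diet and ethanol in turn. *Gpnmb*, a glycoprotein of lipid-loaded macrophages, ranged over 0.153 to 0.654 and 0.414 to 2.38 CPM in WT and over 0 to 0.222 and 0.0425 to 0.278 CPM in *Ahr* HKO. Neither passed an adjusted *P* value under 0.05, and *Gpnmb* is at or near the floor of detection in several livers. With ethanol in either genotype and in the interaction, edgeR called 0 of the 3, also at an unadjusted *P* value under 0.05. Between the genotypes, 2 of 3 had an unadjusted *P* value of edgeR under 0.05 on the control diet and 3 of 3 on ethanol. All 3 log2 FCs were below 0 on both diets.

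T and NK cell markers gave no call of edgeR, 0 of 5 in each of the 5 tests, and at an unadjusted *P* value under 0.05 there was 1 of 5 for the genotypes on ethanol, 1 in the interaction and 0 in the other 3 tests. The most abundant of them, *Ccl5*, was at 1.05, 0.821 and 1.92 CPM in WT control livers, 1.51, 1.83 and 1.56 in WT ethanol livers, 2.33, 0.972 and 1.05 in *Ahr* HKO control livers and 0.624, 0.802 and 0.902 in *Ahr* HKO ethanol livers. Its *Ahr* HKO ethanol livers were below the WT ethanol livers without overlap, at an adjusted *P* value of 0.0972 (log2 FC -1.08 ± 0.27). The CD3 chain genes *Cd3d*, *Cd3e* and *Cd3g* and the cytotoxic granule gene *Nkg7* lay between 0.179 and 1.13 CPM in all livers. Their log2 FCs with ethanol were -0.38 to 0.31 in WT and -0.88 to -0.26 in *Ahr* HKO.

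Of the B cell markers, 1 of 2 was lower in *Ahr* HKO than in WT livers on the control diet. *Cd79a*, a signaling chain of the B cell receptor, was at 0.764, 0.910 and 0.899 CPM in WT control livers, 1.28, 1.00 and 0.891 in WT ethanol livers, 0.261, 0.341 and 0.161 in *Ahr* HKO control livers and 0.439, 0.355 and 0.293 in *Ahr* HKO ethanol livers. The 6 *Ahr* HKO livers were all below the 6 WT livers. On the control diet it was 3.33-fold lower in *Ahr* HKO (log2 FC -1.74 ± 0.40, adjusted *P* = 0.0172), which was lost in 2 of the 6 fits without 1 liver, and on ethanol the log2 FC was -1.53 ± 0.35 with an adjusted *P* value of 0.0857. Its partner *Cd79b* was at 1.02 to 1.33 and 0.684 to 1.15 CPM in WT and at 0.202 to 0.686 and 0.135 to 0.397 CPM in *Ahr* HKO, with log2 FCs of -1.36 ± 0.46 on the control diet (adjusted *P* = 0.0620) and -1.66 ± 0.47 on ethanol (adjusted *P* = 0.123).

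**Figure D4:**
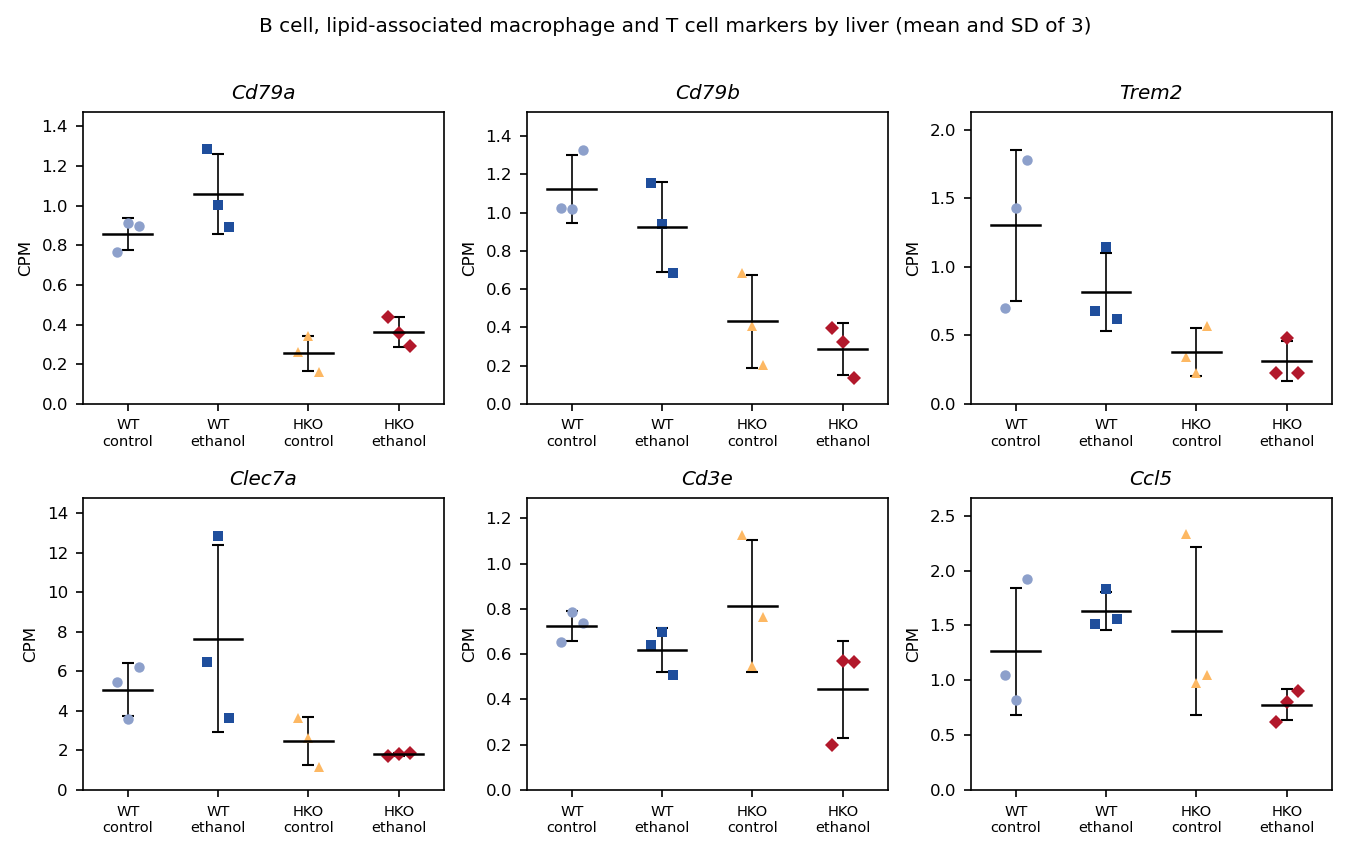
CPM (y axis, linear from 0) of *Cd79a*, *Cd79b*, *Trem2*, *Clec7a*, *Cd3e* and *Ccl5* in each of the 12 livers (symbols, livers 1 to 3 from left to right in each group), with the group mean (line) and SD of 3 livers (bars). The 6 *Ahr* HKO livers are below the 6 WT livers in *Cd79a* and *Trem2*, while *Cd3e* in *Ahr* HKO control livers overlaps both WT groups.

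Read counts were also set against those of *Clec4f* in the same liver, which divides out what a gene shares with *Clec4f* in a liver and was not tested. *Vsig4* kept nearly the same ratio to *Clec4f*, at 0.221, 0.241 and 0.266 in WT and 0.246, 0.283 and 0.201 in *Ahr* HKO on the control diet, and at 0.278, 0.24 and 0.241 in WT and 0.229, 0.246 and 0.218 in *Ahr* HKO on ethanol. *Cd68* did so too in *Ahr* HKO, with 0.114, 0.126 and 0.107 in *Ahr* HKO on the control diet and 0.123, 0.111 and 0.113 on ethanol. *Marco* did not, with 0.822, 0.511 and 0.122 in *Ahr* HKO on the control diet and 0.0537, 0.0583 and 0.0948 on ethanol. For *Cd14* the ratio was 0.285, 0.104 and 0.149 in *Ahr* HKO on the control diet and 0.0257, 0.0220 and 0.0146 on ethanol. For *Timd4* it was 0.135, 0.141 and 0.0933 on the control diet and 0.0535, 0.0627 and 0.0574 on ethanol. In *Marco*, *Cd14*, *Timd4* and *Adgre1* the ethanol livers of *Ahr* HKO thus had fewer reads per *Clec4f* read than each *Ahr* HKO control liver, while in *Vsig4*, *Cd68* and *H2-Aa* these groups overlapped.

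**Figure D5:**
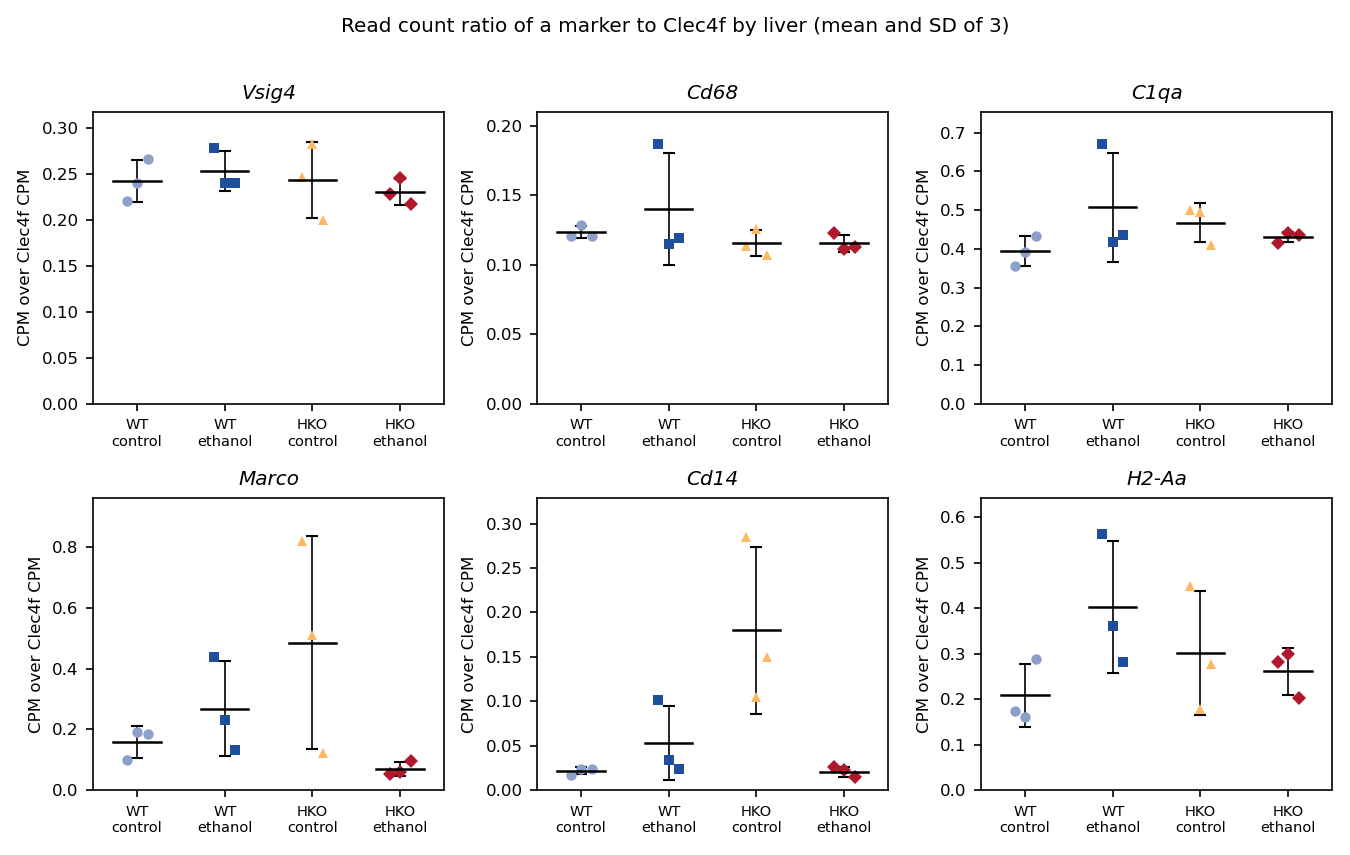
The CPM of *Vsig4*, *Cd68*, *C1qa*, *Marco*, *Cd14* and *H2-Aa* divided by the CPM of *Clec4f* in the same liver (y axis, linear from 0, no unit) for the 12 livers (symbols), with the group mean (line) and SD of 3 livers (bars). *Vsig4* and *Cd68* are level between *Ahr* HKO on the control diet and on ethanol, while *Marco* and *Cd14* drop.

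Genes outside the 41 were read from further lists, not all of them specific to these cells. Their counts stand beside the shares of all tested genes given above (for ethanol in *Ahr* HKO, 15% that rose and 16.1% that fell). Of 14 more Kupffer cell genes, 0 rose and 9 fell with ethanol in *Ahr* HKO. Those with the smallest *P* values were *Il18bp* (the decoy receptor of IL-18, log2 FC -1.02 ± 0.17), *Id3* (a transcriptional regulator of Kupffer cells, -1.31 ± 0.28), *Cfp* (properdin, -1.45 ± 0.31) and *Spic* (a factor of iron-recycling macrophages, -2.68 ± 0.61), with adjusted *P* values of 0.00587, 0.0138, 0.0142 and 0.0164. The other 5 were not called, and 2 of the 14 had a log2 FC above 0. *Fcna* was at 52.4, 53.4 and 44.2 CPM in *Ahr* HKO control livers and 54.1, 54.9 and 59.3 in *Ahr* HKO ethanol livers. *Slc40a1* was at 65.0, 83.4 and 47.3 CPM in *Ahr* HKO control livers and 126, 87.6 and 89.4 in *Ahr* HKO ethanol livers. In WT, 1 of the 14 rose with ethanol, *Hmox1*, the heme oxygenase gene (log2 FC 1.66 ± 0.26, adjusted *P* = 0.0137), and 0 fell. On the control diet 2 of the 14 were higher and 1 was lower in *Ahr* HKO, and 5 of 14 had a negative interaction. Of 11 genes listed for lipid-handling macrophages, 3 fell and 0 rose with ethanol in *Ahr* HKO (*Fabp5*, *Plin2* and *Lgals3*), while in WT 3 rose and 1 fell (*Fabp5*, *Cd36*, *Cd9* and *Ctsb*). Some of the 11 stood far above the macrophage markers, with *Apoe* at 17190 to 32380 CPM and *Plin2* at 325 to 965 CPM. *Clec4f* was at 65.0 to 194 CPM. These counts are not read as changes of macrophages, and the source of this RNA was not tested.

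Ligands and partners of the receptors above came next. The list of CSF1 receptor ligands and the TLR4 complex holds 7 genes. With ethanol in *Ahr* HKO, 3 of them fell (*Myd88*, *Tlr4* and *Tlr2*), and on the control diet 2 were higher in *Ahr* HKO (*Ly96* and *Myd88*). *Tlr2*, a receptor of bacterial lipoproteins, was at 5.19, 6.94 and 2.00 CPM in *Ahr* HKO on the control diet and 1.16, 1.06 and 1.40 on ethanol (log2 FC -1.97 ± 0.43, adjusted *P* = 0.0153). The ligand genes *Csf1* and *Il34* were not called, with adjusted *P* values of 0.523 and 0.167 for ethanol in *Ahr* HKO.

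Of 16 inflammatory cytokine and chemokine genes, 12 were tested, and *Cxcl1* and *Ccl2* rose with ethanol in WT. *Cxcl1*, a neutrophil chemokine that hepatocytes also make, was at 3.08, 4.93 and 3.05 CPM in WT control livers, 19.1, 27.1 and 13.8 in WT ethanol livers, 41.7, 31.7 and 138 in *Ahr* HKO control livers and 17.6, 69.7 and 14.2 in *Ahr* HKO ethanol livers. The log2 FC was 2.44 ± 0.30 for ethanol in WT (adjusted *P* = 0.00580) and 4.25 ± 0.61 for *Ahr* HKO against WT on the control diet (adjusted *P* = 0.00341). *Ccl2*, the monocyte chemokine, rose by 3.46 on the log2 scale in WT (adjusted *P* = 0.0323), from 0.611, 0.750 and 0.307 to 9.02, 8.27 and 1.27 CPM. *Il1b*, made by activated macrophages, had 4.59, 4.76 and 3.27 CPM in *Ahr* HKO on the control diet and 0.666, 0.910 and 2.41 on ethanol (log2 FC -1.69 ± 0.47, adjusted *P* = 0.0335). In *Ahr* HKO, 2 of the 12 rose and 2 fell with ethanol, which is near the share over all tested genes.

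Calls in the remaining lists stand beside the same shares of all tested genes, 15% that rose and 16.1% that fell with ethanol in *Ahr* HKO. Of 10 genes listed for class II loading and control, 1 rose (*B2m*) and 3 fell (*Ciita*, *Ctss* and *H2-Oa*) with ethanol in *Ahr* HKO. In WT 0 were called. The list also holds class I genes, namely *B2m*, *H2-K1* and *H2-Q7*. Of 6 tested dendritic cell genes, *Xcr1* fell in *Ahr* HKO with ethanol. *Cd4* fell with ethanol in WT among 11 tested T and NK cell genes (log2 FC -2.19 ± 0.52, adjusted *P* = 0.0452), and *Klrb1c* was higher in *Ahr* HKO on the control diet. Of 6 cell cycle genes, 1 rose and 3 fell with ethanol in *Ahr* HKO, with no call in WT.

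Markers of other liver cells moved with some of these differences, and their part in the results was not tested. The summed level of 8 sinusoidal endothelial genes was 249 to 275 CPM in *Ahr* HKO on ethanol and 380.1 to 400.1 in *Ahr* HKO on the control diet, and 343 to 423 and 245 to 539 in WT on the control diet and on ethanol. With ethanol in *Ahr* HKO, 4 of the 8 fell, namely *Stab1* (log2 FC -0.89 ± 0.11), *Stab2* (-0.76 ± 0.18), *Fcgr2b* (-0.51 ± 0.10) and *Pecam1* (-0.74 ± 0.13), and 0 rose. WT ethanol liver 2, the highest of its group in most leukocyte markers, was also the highest in all 4, for example 45.6, 113 and 50.9 CPM for *Stab1*. The sum over 8 stellate cell genes was 246 to 267 CPM in *Ahr* HKO on the control diet and 280.4 to 327 on ethanol, with 2 that rose and 1 that fell. Over 5 hepatocyte genes it was 83150 to 127400 and 99670 to 109000 CPM, over 5 cholangiocyte genes 9.50 to 14.0 and 7.51 to 10.4 CPM, and over 5 erythroid genes 142 to 289 and 367 to 493 CPM, in the same order. With ethanol in *Ahr* HKO, *Ttr* rose and *Fgb* fell among the 5 hepatocyte genes, and *Epcam* fell among 4 tested cholangiocyte genes. *Fgb* was at 18780, 17280 and 23340 CPM in *Ahr* HKO control livers and 5203, 4202 and 5055 in *Ahr* HKO ethanol livers. On the control diet *Fgb* and *Epcam* were called higher in *Ahr* HKO than in WT. No erythroid gene was called with ethanol in *Ahr* HKO. How reads were shared between the globin genes of the erythroid sum is not given in the sources used here. *Ahr* HKO control liver 3 had 0 counts of *Hba-a1* and *Hbb-bs* and 2929 of *Hba-a2*. WT control liver 2 had 9031 of *Hba-a1* and 6 of *Hba-a2*. No change of erythroid RNA is read from these sums. No defining marker of the lists in this paragraph was at 0 in all livers.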

How the data were processed

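RNA of 12 mouse livers (4 groups of 3, grouped by the labels) was sequenced by the authors as poly-A selected, stranded, paired-end libraries. The submitters' processing notes name FastQC 0.11.7, Trimmomatic 0.38, HISAT2 2.1.0, Bowtie2 2.3.4.1, StringTie 1.3.4d and the mouse build mm10. The authors deposited 1 table of whole-number counts, FPKM and TPM per gene and liver. How reads shared by overlapping genes or near-identical copies were counted is not given in the sources used here. TPM from the deposited table was only summed per liver (924962 to 987569), and FPKM was used for levels between genes and for 2 alternatives. The authors' own tests used log-scaled, quantile-normalized FPKM.

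The deposited counts were filtered with filterByExpr over the 4 groups (minimum count 10), which kept 14038 of 24532 genes, scaled by TMM (factors 0.925 to 1.157) and tested with the quasi-likelihood F-test of edgeR 4.0.16 in R 4.3.3. A comparison of 2 groups used only its own 6 livers, and the interaction all 12. Two-sided *P* values were adjusted by Benjamini-Hochberg over the 14038 genes, and values under 0.05 were taken as calls, with no minimum fold. The replicates are separate livers, 3 per group, so the precision rests on that number more than on the depth of 46306518 to 74336255 counts. The tests were tried on simulated data with known changes.

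The 41 markers and all gene lists were chosen with earlier results of these data known. By rule, every marker called in any of the 5 tests, both neutrophil markers and the most abundant marker of a role group without calls are given liver by liver, and of each other list up to 4 called genes with the smallest *P* values are named. Genes that appear outside that rule, such as *Csf1*, *Il34*, *Itgax* and *Cd79b*, were named after their values were seen. Alternatives were DESeq2 1.42.0, limma 3.58.1 on FPKM with pseudocounts of 1 and 0.1, other scalings and filters, 1 fit of all livers, a replicate block and leaving out each liver. Same-numbered livers did not deviate together throughout (correlations of -0.136 to 0.307), and no source pairs them. Promoters are from RefSeq (GRCm38.p6) and were matched by symbol for 30 of the 41 markers. The symbols *Ighm* and *Tf* of 2 lists were not analysed here.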

Additional observations from a re-analysis of the deposited data

Results flagged for a closer look

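The results below stand out because the log2 FC of ethanol differed between the genotypes by a test of the difference itself, the interaction of edgeR on 12 livers with an adjusted *P* value under 0.05. All of the 23 were negative, that is, lower in *Ahr* HKO than in WT. The values were -4.617 for *Marco*, -2.239 for *Timd4* and -1.884 for *Cd5l* among Kupffer cell genes. Among macrophage and C1q genes they were -5.259 for *Cd14*, -2.328 for *Adgre1*, -2.231 for *Lyz2*, -1.359 for *C1qa*, -1.371 for *C1qb* and -1.355 for *C1qc*. The MHC class II genes had -2.008 for *Cd74*, -2.125 for *H2-Aa*, -2.2 for *H2-Ab1* and -2.175 for *H2-Eb1*. Monocyte and neutrophil markers had -4.08 for *Itgam*, -3.074 for *Ly6c2*, -2.01 for *Ccr2*, -3.011 for *S100a8* and -3.082 for *S100a9*. Pan-leukocyte genes had -1.52 for *Ptprc*, -1.667 for *Spi1*, -1.288 for *Tyrobp*, -1.415 for *Fcer1g* and -1.708 for *Cd52*. With 3 livers per group no liver was tested for standing apart.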

How the results depend on the processing

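With ethanol in WT, where 2 markers were called, DESeq2 called 5 and the fit with a replicate block 0, and leaving out 1 liver gave 0 to 4. With ethanol in *Ahr* HKO (23 called) the replicate block gave 11 and leaving out 1 liver 11 to 26. Between the genotypes on the control diet (7 called) DESeq2 gave 12, and leaving out 1 liver 5 to 20. Between the genotypes on ethanol (0 called) DESeq2 gave 30, library totals without scaling factors 1, a single fit of all 12 livers 3 and the replicate block 3, and leaving out 1 liver 0 to 5. For the interaction (23 called) the replicate block gave 11, limma gave 12 with a pseudocount of 1 and 13 with 0.1, and leaving out 1 liver gave 8 to 28. Of all tested genes, leaving out 1 liver called 360 to 1011, 2588 to 3795, 2630 to 3737, 10 to 193 and 2267 to 3084, in the order above. The replicate numbers do not mark shared animals or days, and the samples share only a number. The causes of these changes were not tested. Of all 14038 tested genes, DESeq2 called 2354 for ethanol in WT and, between the genotypes, 4848 on the control diet and 1484 on ethanol. The replicate block called 539 and 2970 for ethanol in WT and *Ahr* HKO, 247 for the genotypes on ethanol and 2745 for the interaction. Library totals called 317 and the single fit 575 for the genotypes on ethanol. For the interaction limma called 3219 with a pseudocount of 1 and 3234 with 0.1. Over the called log2 FCs of single markers, 400 of 470 values under another processing stayed called, 70 lost the call and 0 reversed, and without 1 liver 291 of 468 stayed called, 177 lost the call and 0 reversed. Library totals shifted the median log2 FC of all tested genes by more than 0.1 for ethanol in WT (to 0.149), for the genotypes on ethanol (to -0.203) and for the interaction (to -0.227), beside medians of 0.471, -1.46 and -1.63 over the 41 markers. Markers under about 1 CPM, among them those of T cells and *Gpnmb*, rest on few reads.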
